A study of Mus musculus with 24 samples.

Results

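The genes described here are 46 mouse genes that interferons are known to induce or that belong to the Schlafen family, which interferons also induce. They were taken by name from a list that used no measured value. The list was, however, chosen with earlier results of these data known. All 46 of 46 were found in the FPKM tables, 8 of them as the sum of more than 1 RefSeq transcript, among 22282 genes in all. All 46 also had a mean FPKM of at least 1 over the 24 libraries and so entered the tests, which covered 14964 genes. By role they comprised 4 interferon transcription factors, 3 Ifit proteins, 6 genes of Isg15 and its modifiers, 6 of Mx proteins and other antiviral effectors, 6 of the oligoadenylate synthetase group with Eif2ak2, 3 nucleic acid sensors, 5 other interferon-induced genes, 5 GTPases, 3 genes of antigen processing and 5 Schlafen genes.

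RNA sequencing covered 8 groups of 3 libraries from mice of C57BL/6 background. By the methods the amniotic cells came from wild-type or tdTomato reporter mice, and which of them were sequenced is not given there. MACs were amniotic fluid cells from E11.5-E13.5 litters of mixed gender, and Akt-MACs were MACs given a lentivirus for constitutively active, myristoylated Akt. RACVECs were MACs transduced with the Ets factors Etv2, Erg and Fli1 and grown as endothelial cells (ECs) with an inhibitor of TGF-β signalling. Akt-RACVECs carried the active Akt in addition, and Sox17-RACVECs carried Sox17 and were selected with puromycin. Akt-LECs and Akt-liver ECs were cultured lung and liver ECs, captured with CD31 beads, given the same Akt and sorted again for VEcad and CD31. LSECs were liver ECs taken from the mouse without culture, by FACS after intravital labelling with anti-VEcad and isolectin. The paper describes the cultured lung ECs and the directly purified liver ECs as adult. Etv2, Erg, Fli1 and Akt stood behind a PGK promoter, which is active in most cell types, and each replicate of the amniotic cells was an independently isolated culture. By the methods MACs were grown in AmnioMAX before conversion and converting cells in EC medium. Whether the sequenced MACs carried an empty virus or had been moved to EC medium is not given in the sources used here, so the Ets factors, transduction and culture conditions cannot be told apart in the comparison of RACVECs with MACs.

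Cells that sense viral RNA or DNA secrete type I interferons, which bind the receptor pair Ifnar1 and Ifnar2 on the same and neighbouring cells. The receptor's kinases Jak1 and Tyk2 activate a complex that holds Stat2 and Irf9 and binds interferon-stimulated response elements, whereas interferon-γ acts mainly through gamma-activated sites. The induced proteins bind viral RNA, degrade it, stop translation, hold virions at the membrane or mark proteins with Isg15. ECs are among the cells that respond to interferons, and Ets factors such as PU.1 share composite elements with interferon regulatory factors. Schlafen genes lie mostly in a cluster on mouse chromosome 11 and have been linked to lymphocyte quiescence and myeloid differentiation. Mx1 makes no functional protein in C57BL/6 mice.

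The response element was 1 of 3 motifs searched in the promoters, and more members held it than either of the others. Its core was searched as the letters GAAANNGAA on both strands of promoters of 300 bases, which run from 250 bases before to 50 after each start site (RefSeq, GRCm38.p6). Of the 36 members with a promoter in that table, 19 (52.8%) held the core, against 9.76% of 27025 genes. The gamma-activated site, TTCNNNGAA, was found in 9 of the 36 (25%) against 9.55% of genes. The core of a composite of Ets and Irf sites, GGAANNGAA, which may overlap a match to the response element, was found in 6 (16.7%) against 9.42%. The stretches below come from 5 members that rose in RACVECs in the tests that follow. Isg15, placed first, did not pass that test and is shown as the classical example, chosen after its values were seen. Capitals mark the matched letters, which read as the reverse complement where the site lies on the other strand, and overlapping matches run together.
Isg15: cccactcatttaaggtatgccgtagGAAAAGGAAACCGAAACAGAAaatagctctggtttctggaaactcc
Bst2: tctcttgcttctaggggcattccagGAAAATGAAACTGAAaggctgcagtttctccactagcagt
Oas1a: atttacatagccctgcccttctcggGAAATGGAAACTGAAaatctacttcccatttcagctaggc
Oas3: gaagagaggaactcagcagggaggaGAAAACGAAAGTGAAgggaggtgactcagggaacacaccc
Slfn5: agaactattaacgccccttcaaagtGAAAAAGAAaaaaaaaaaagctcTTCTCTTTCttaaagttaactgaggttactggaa
Slfn2: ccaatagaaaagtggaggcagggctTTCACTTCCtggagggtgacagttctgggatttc

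The stretch of Isg15 is chr4:156200851-156200921 on the minus strand, and that of Bst2 is chr8:71537563-71537627, minus. Oas1a at chr5:120907506-120907570 and Oas3 at chr5:120777695-120777759 are also on the minus strand. The stretch of Oas1a runs across its start site. The stretches of Slfn5, chr11:82951922-82952003, and Slfn2, chr11:83065029-83065087, are on the plus strand. In Isg15, Bst2, Oas1a and Oas3 the matches overlap head to tail, 3 in Isg15 and 2 in each of the others, whereas the 2 in Slfn5 are separate and on opposite strands. The capitals in Slfn2 are the Ets and Irf composite, and its promoter held no match to the response element core. Trim30a, not shown, held a single match in each of its 2 promoters in the table. Neither the core nor the composite was matched in the promoter of Slfn4. Trim14, Oas2 and Zbp1 were among the 10 members without an entry in that table. A match is a description of letters in these windows and not of binding. In mm9 (GENCODE M1) the genes Slfn5, Slfn9, Slfn8, Slfn2, Slfn1, Slfn4 and Slfn3 lie in this order at chr11:82764851-83028656. Slfn10-ps lies between Slfn8 and Slfn2. Trim14 lies at chr4:46506653-46549013 on the minus strand.

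In the libraries, summed FPKM ran from 1689486 to 2317294, and no 2 libraries held identical values. Etv2 was above 0 in 8 of the 9 libraries labelled with the Ets factors. Erg in RACVECs was only 3.91, 13.8 and 0.90 FPKM, against 395 or more in Akt-RACVECs. The exception for Etv2, the library labelled Sox17-RACVEC 2, listed Etv2 at 0, with Erg at 387 FPKM against 4.49 and 0 in the other Sox17-RACVECs, so it is called by its label and its group is also given without it. Sox17 was 5.09, 40.1 and 200.1 in Sox17-RACVECs, 0 in RACVECs and 12.0, 83.5 and 82.2 in Akt-RACVECs. Akt1 was 848 or more in Akt-MACs and Akt-RACVECs and at most 694 in MACs and RACVECs, but it was 884, 1323 and 916 in Sox17-RACVECs and 892, 559 and 656 in Akt-liver ECs, so that it does not mark the Akt virus in each library. Etv2 was listed at 0 in all MACs, and a transgene cannot be separated from the endogenous gene. VEcad (Cdh5) was 863 or more in every EC and RACVEC library and at most 7.36 in MACs and Akt-MACs. Markers of other cells were uneven: 15 macrophage markers summed to 19408 and 57459 FPKM in Akt-MAC 2 and 3 and to between 20282 and 32708 in LSECs, but to at most 2284 in each other library. The LSECs also held red cell and hepatocyte RNA, and Akt-LEC 1 and Akt-liver EC 1 held mesenchymal markers at 4170 and 2636 FPKM against at most 439 in the other cultured ECs. The column name of RACVEC 3 gives a day of culture and a sort that the names of RACVEC 1 and 2 do not.

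**Figure D1:**
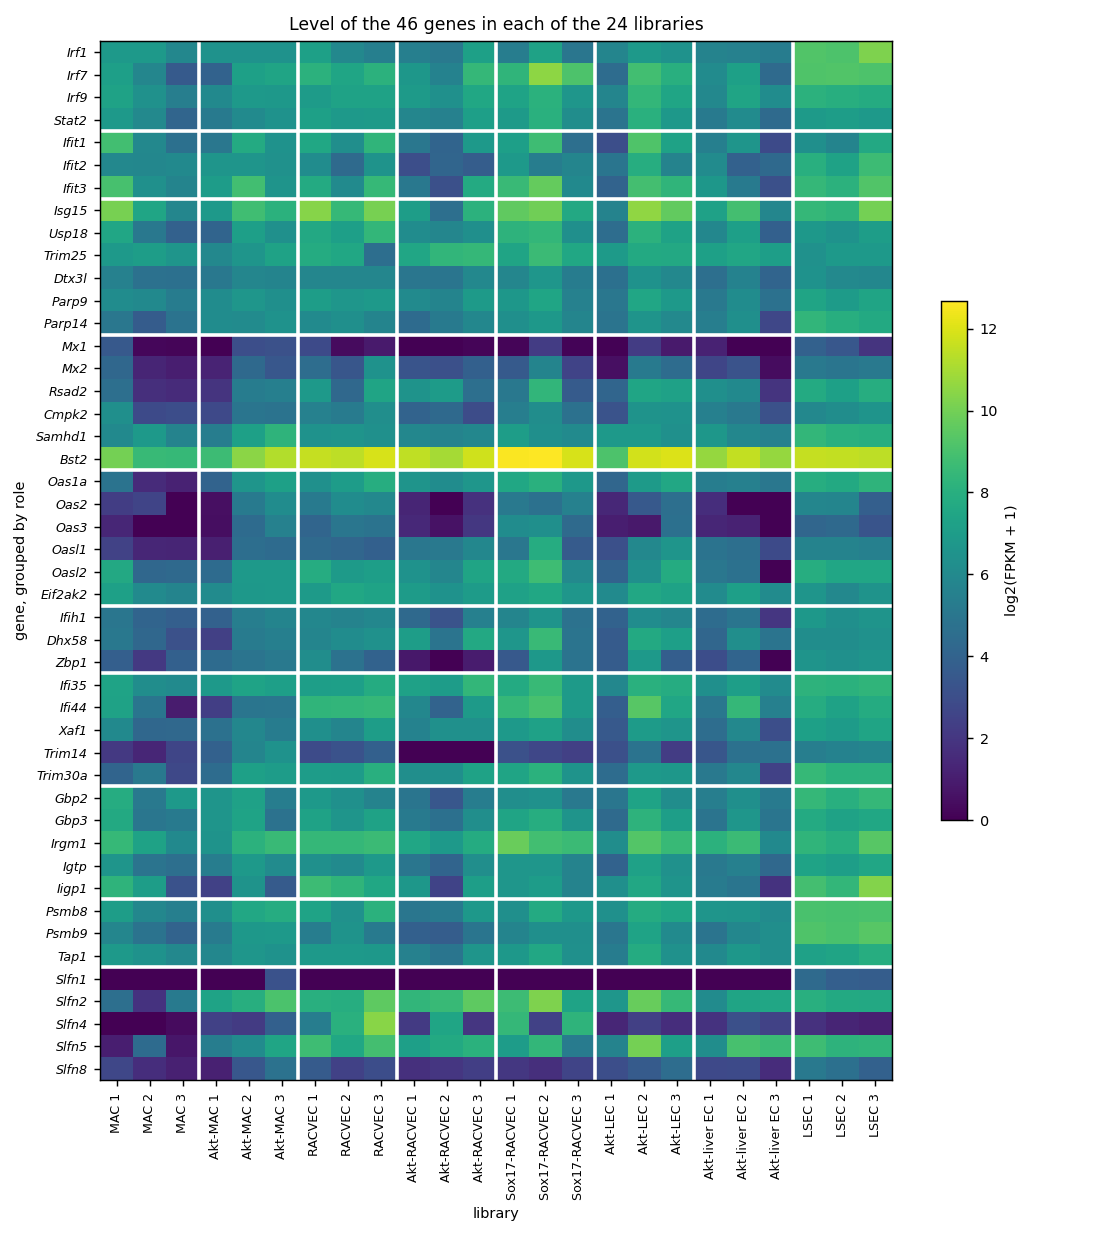
Levels of the 46 genes, log2(FPKM + 1) by colour, in the 24 libraries (columns, 3 a group, separated by white lines), with genes in rows grouped by role. Bst2 is bright in every library, Slfn1 is dark outside the LSECs, and whole columns such as Akt-LEC 1 and Akt-liver EC 3 are darker than the others of their group.

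FPKM is a level per length, so members can be set side by side. Bst2, which tethers budding virions to the membrane, had the highest level of the members in every library but MAC 1, where Isg15 did, from 361 FPKM in MAC 3 to 6566 in the library labelled Sox17-RACVEC 2. Isg15, the ubiquitin-like modifier, ranged from 23.95 in Akt-RACVEC 2 to 1513 in Akt-LEC 2. Mx1 stayed at or below 14.1 in all libraries. Slfn1 was above 0 in 4 libraries only, at 20.1, 13.4 and 12.2 FPKM in the LSECs and at 8.10 in Akt-MAC 3. These libraries were rich in macrophage markers, but so was Akt-MAC 2, where Slfn1 was listed at 0. The part of RNA from other cells in it was not tested.

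RACVECs were compared with MACs to ask what conversion with Etv2, Erg and Fli1 changed. In RACVECs 7 of the 46 genes rose and none fell, against 1.36% of all genes called higher and 1.35% called lower. A gene was called where limma's adjusted p on log2(FPKM + 1) was under 0.05 and the log2 fold change exceeded 1 in size. They were the Schlafen genes Slfn4, Slfn5 and Slfn2, the oligoadenylate synthetases Oas1a and Oas3, Bst2 and Trim30a. The fold change was above 0 for 41 of 46 members against 48.4% of all genes, with a median of 1.41 against 0.00 over all genes. For 18 members every RACVEC library lay above every MAC library, against 11.4% of all genes, and for 0 the reverse held (10.5%). An unadjusted p under 0.05 with a fold change of that size was found for 16 members upward (5.45% of all genes) and 0 downward (7.15%).

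Slfn4, whose expression is known from myeloid cells, was listed at 0, 0 and 0.28 FPKM in the 3 MACs and at 41.0, 264 and 1372 in the RACVECs. The groups did not overlap, but the RACVECs themselves differed by more than an order of magnitude. The difference was 7.84 ± 1.46 (SE) on the log2(FPKM + 1) scale, with an adjusted p of 0.00545 by limma, and its size depends on the pseudocount because the MACs were at or near 0. Slfn5 was 1.12, 20.7 and 0.73 in MACs and 425, 187 and 479 in RACVECs. All RACVECs were far above all MACs, by 6.29 ± 1.07 (adjusted p = 0.00278, limma). Slfn2, which restrains proliferation of resting T cells, was 23.8, 2.59 and 35.3 in MACs and 252, 241 and 751 in RACVECs, a difference of 4.60 ± 0.86 (adjusted p = 0.00571, limma). Slfn8 was low in both groups, between 1.22 and 11.6 FPKM, with overlapping values. The other Schlafen genes with enough signal moved the same way: Slfn3 rose by 5.50 ± 0.77 (adjusted p = 0.000649) and Slfn9 by 1.98 ± 0.37 (adjusted p = 0.00517, limma). Slfn1 to Slfn4, and Slfn8 with Slfn9, are similar in sequence, so that reads may be shared between them and the split between copies is uncertain.

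The oligoadenylate synthetases make the short RNA that switches on RNase L. Oas1a was 27.1, 1.97 and 1.29 FPKM in MACs and 80.5, 129 and 237 in RACVECs, so that even the highest MAC was below the lowest RACVEC. The difference was 4.56 ± 0.91 (adjusted p = 0.00853, limma). Its copy Oas1g rose too, by 3.44 ± 0.82 (adjusted p = 0.0276, limma), and reads may be shared between these. Oas3 was 1.57, 0 and 0 in MACs against 16.8, 30.9 and 27.5 in RACVECs (4.21 ± 1.07, adjusted p = 0.0380, limma). Oas2, 4.02, 5.07 and 0 against 36.3, 71.2 and 58.6, also did not overlap but missed the threshold at an adjusted p of 0.0578.

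Bst2 was 1044, 371 and 361 FPKM in MACs and 2989, 2718 and 3833 in RACVECs. Its RACVEC values were close together and all above the MACs, by 2.60 ± 0.65 (adjusted p = 0.0354, limma). Trim30a, known to restrain Toll-like receptor signalling, was 15.8, 33.4 and 5.72 against 128, 125 and 253 (3.36 ± 0.85, adjusted p = 0.0380, limma). The Trim30 genes are copies of each other, and their reads may be shared. Ifi44 was 158, 29.1 and 0.96 against 315, 329 and 347, without overlap, and was not called (3.97 ± 1.41, adjusted p = 0.132). None of the 4 transcription factors, 3 Ifit genes, 6 genes of Isg15 and its modifiers, 5 GTPases or 3 genes of antigen processing passed. Irf7, the factor that amplifies interferon production, was 144, 54.9 and 11.1 against 286, 175 and 286, without overlap (2.40 ± 1.13, adjusted p = 0.249). Ifit1 was 466, 60.2 and 24.8 against 188, 76.7 and 315, and Isg15 was 1076, 174 and 56.2 against 1350.5, 358 and 1094, and in both genes MAC 1 was above the lowest RACVEC, for Ifit1 above all of them.

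MAC 1 was the highest MAC for 35 of the 46 genes. Its mean log2 level over the members was 5.69, against 4.38 and 3.81 in MAC 2 and 3 and between 6.17 and 6.70 in the RACVECs. Without it, 39 members lay above the other MACs in every RACVEC (15.2% of all genes, since fewer libraries separate more easily), while 5 were called (0.986%). The 3 Schlafen genes and Oas1a were called when any single MAC or RACVEC library was left out. Oas3 was lost each time, Bst2 each time but without MAC 1, and Trim30a each time but without MAC 2, which left 4 called members without MAC 3 or any RACVEC. In a fit of the 6 libraries of these groups alone, 1 member was called.

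**Figure D2:**
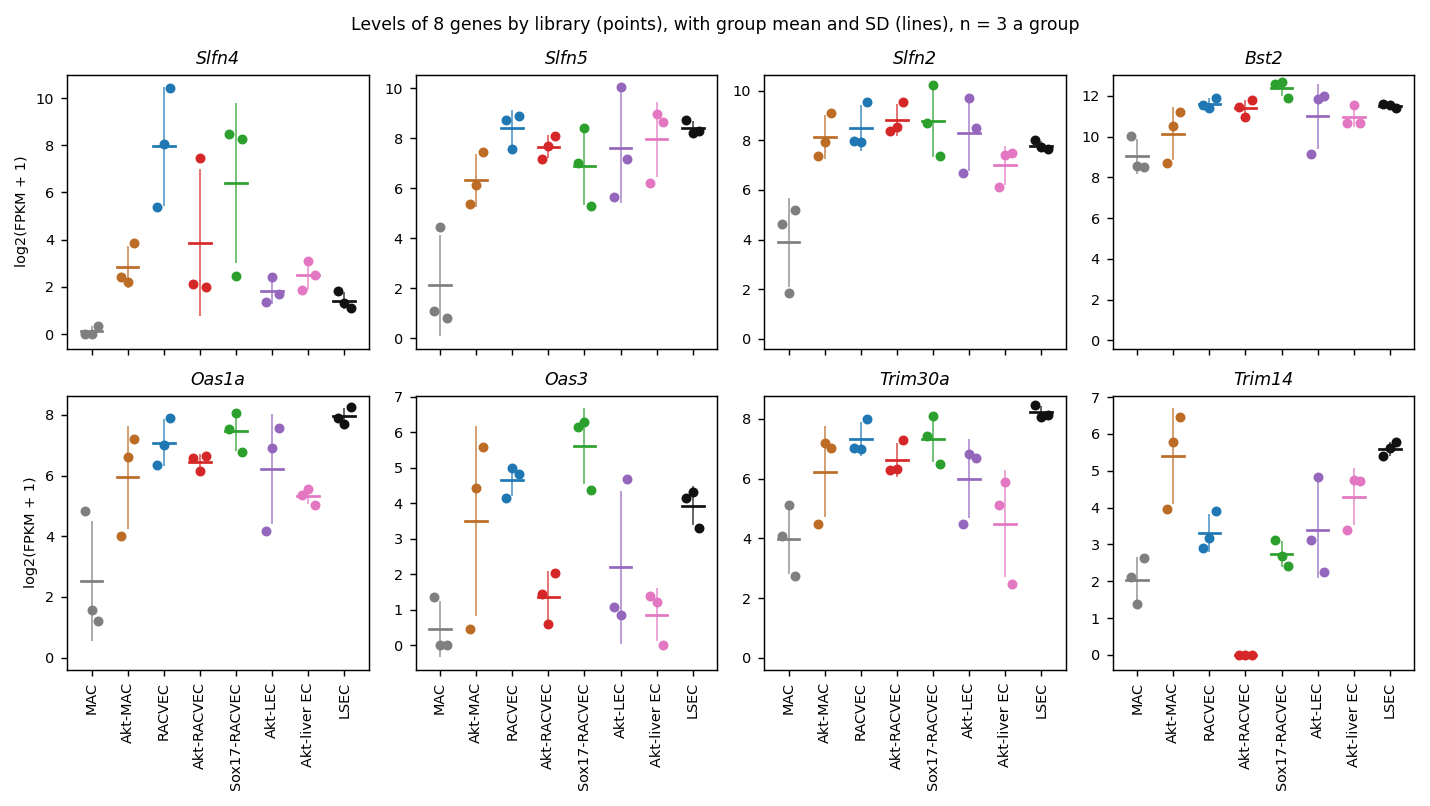
Levels of 8 genes, log2(FPKM + 1), in each library (points) by group, with the group mean (short horizontal line) and SD (vertical line), n = 3. The 3 MACs lie below the RACVECs for Slfn4, Slfn5, Slfn2, Bst2, Oas1a, Oas3 and Trim30a, and Trim14 is at 0 in all 3 Akt-RACVECs.

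Slfn4 was uneven within each group that carried the Ets factors. In Akt-RACVECs it was 3.39, 175 and 3.00 FPKM, and in Sox17-RACVECs 351, 4.54 and 308. In each of these groups 1 library stood apart from the other 2. Akt-MACs, Akt-LECs, Akt-liver ECs and LSECs stayed between 1.16 and 13.6. Etv2 in the same libraries was 860, 301 and 659 FPKM in RACVECs, 127, 572 and 289 in Akt-RACVECs, and 458, 0 and 378 in Sox17-RACVECs. The 6 libraries with Slfn4 at 41.0 or more had Etv2 at 301 or more, and in the 18 others Slfn4 was at most 13.6 and Etv2 at most 289. Within these 6 the order was not the same, since RACVEC 1 had the most Etv2 and the least Slfn4. This split was noticed in these values and their relation was not tested. Slfn2 and Slfn5 did not follow it: in the library labelled Sox17-RACVEC 2 they were 1205 and 341 FPKM.

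**Figure D3:**
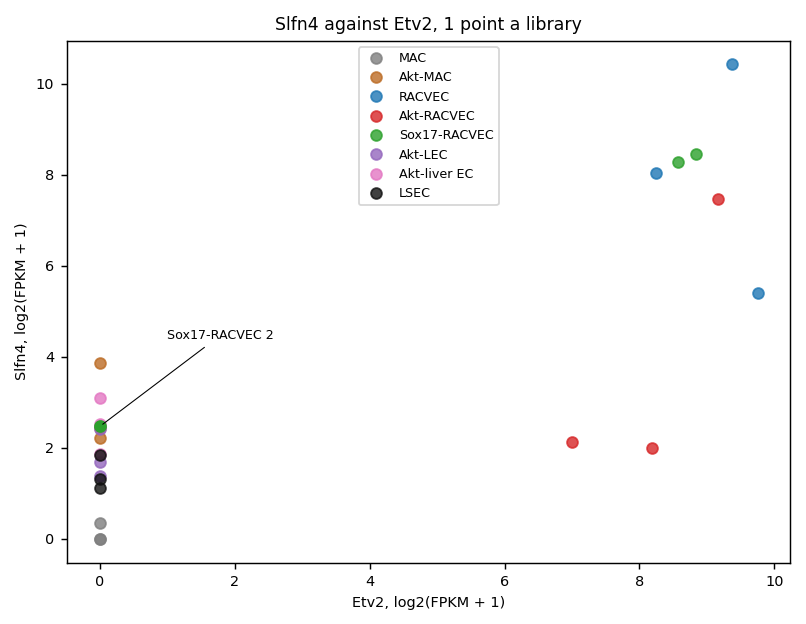
Slfn4 against Etv2, both as log2(FPKM + 1), with 1 point for each of the 24 libraries coloured by group. Slfn4 is high in 6 libraries, all with Etv2 at 301 FPKM or more, and low in the 16 with Etv2 at 0, among them the library labelled Sox17-RACVEC 2, and in 2 Akt-RACVECs.

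Akt-RACVECs were compared with the same RACVECs to ask what constitutive Akt added. Here most members were lower: only 5 of 46 had a fold change above 0, against 46.6% of all genes, and the median was -1.07 against 0.00. For 19 members every Akt-RACVEC lay below every RACVEC, against 9.15% of all genes. Only 1 member lay above them all (10.6%). The test called 1 lower and 0 higher, against 0.0401% and 0.221% of all genes, and by unadjusted p there were 11 lower (5.24%) and 1 higher (4.79%). The one that passed was Trim14, an adaptor of the mitochondrial antiviral signalling protein. It was listed at 0 in all 3 Akt-RACVECs, against 6.44, 8.01 and 13.9 FPKM in RACVECs. Its difference of -3.32 ± 0.62 (adjusted p = 0.0348, limma) depends on the pseudocount, since 1 group is at 0, and the call was lost without RACVEC 1, without RACVEC 3 and without each Akt-RACVEC in turn (adjusted p for Trim14 from 0.0511 to 0.120).

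Zbp1, Oas2 and Oas3 did not overlap either and did not pass. Zbp1, a sensor of Z-form nucleic acids, was 0.76, 0 and 0.98 FPKM in Akt-RACVECs and 74.4, 26.6 and 15.1 in RACVECs (-4.41 ± 0.99, adjusted p = 0.0550, limma). Oas2 was 1.48, 0 and 2.48 against 36.3, 71.2 and 58.6 (-4.73 ± 1.14, adjusted p = 0.0623), and Oas3 was 1.73, 0.53 and 3.13 against 16.8, 30.9 and 27.5 (-3.29 ± 1.07, adjusted p = 0.141). These genes were at 3.13 FPKM or less in each Akt-RACVEC. Of the other sensors, Ifih1 had a fold change of -1.44 and Dhx58 of 0.42, neither called. Leaving out the library labelled Sox17-RACVEC 2, which belongs to neither group but shares the estimate of spread, brought Zbp1 and Oas2 past the threshold (adjusted p = 0.0184 and 0.0367), for 3 lower members in all. Isg15 was 133, 23.95 and 285 against 1350.5, 358 and 1094, and Ifit2 was 7.32, 16.6 and 12.2 against 71.1, 20.03 and 90.4. The 3 genes of antigen processing, the immunoproteasome subunits Psmb8 and Psmb9 and the peptide transporter Tap1, had fold changes of -1.64, -1.54 and -1.14, each at an unadjusted p below 0.05.

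Some members overlapped with the RACVECs. Oas1a was 93.4, 70.0 and 98.7 FPKM in Akt-RACVECs, Bst2 was 2803, 1996 and 3520, and Slfn2 was 329, 370.1 and 743. The members with a higher mean in Akt-RACVECs were Oasl1, Trim25, Dhx58, Slfn2 and Ifi35. Oasl1, a regulator of Irf7 translation, was 31.4, 34.2 and 57.3 against 19.9, 17.3 and 13.6, above all RACVECs (1.19 ± 1.01, adjusted p = 0.618). Trim25, the ligase that activates the sensor Ddx58, now Rigi, was 178, 322 and 346 against 224, 185 and 23.0, with RACVEC 3 apart from the others. Akt-RACVEC 3 was the highest of its group for 38 members and Akt-RACVEC 2 the lowest for 30. Without Akt-RACVEC 3, 33 members lay below all RACVECs (11.6% of all genes), and none was called (0.00667%).

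Cell type markers moved in the same comparison. The 9 mesenchymal markers summed to 6552, 3057 and 2988 FPKM in RACVECs and to 407, 41.7 and 6.04 in Akt-RACVECs, with a median fold change of -5.76. The 10 endothelial markers summed to 2224, 4592 and 3780 in RACVECs and to between 13978 and 22517 in Akt-RACVECs, with a median of 3.35. Their part in the lower members was not tested.

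**Figure D4:**
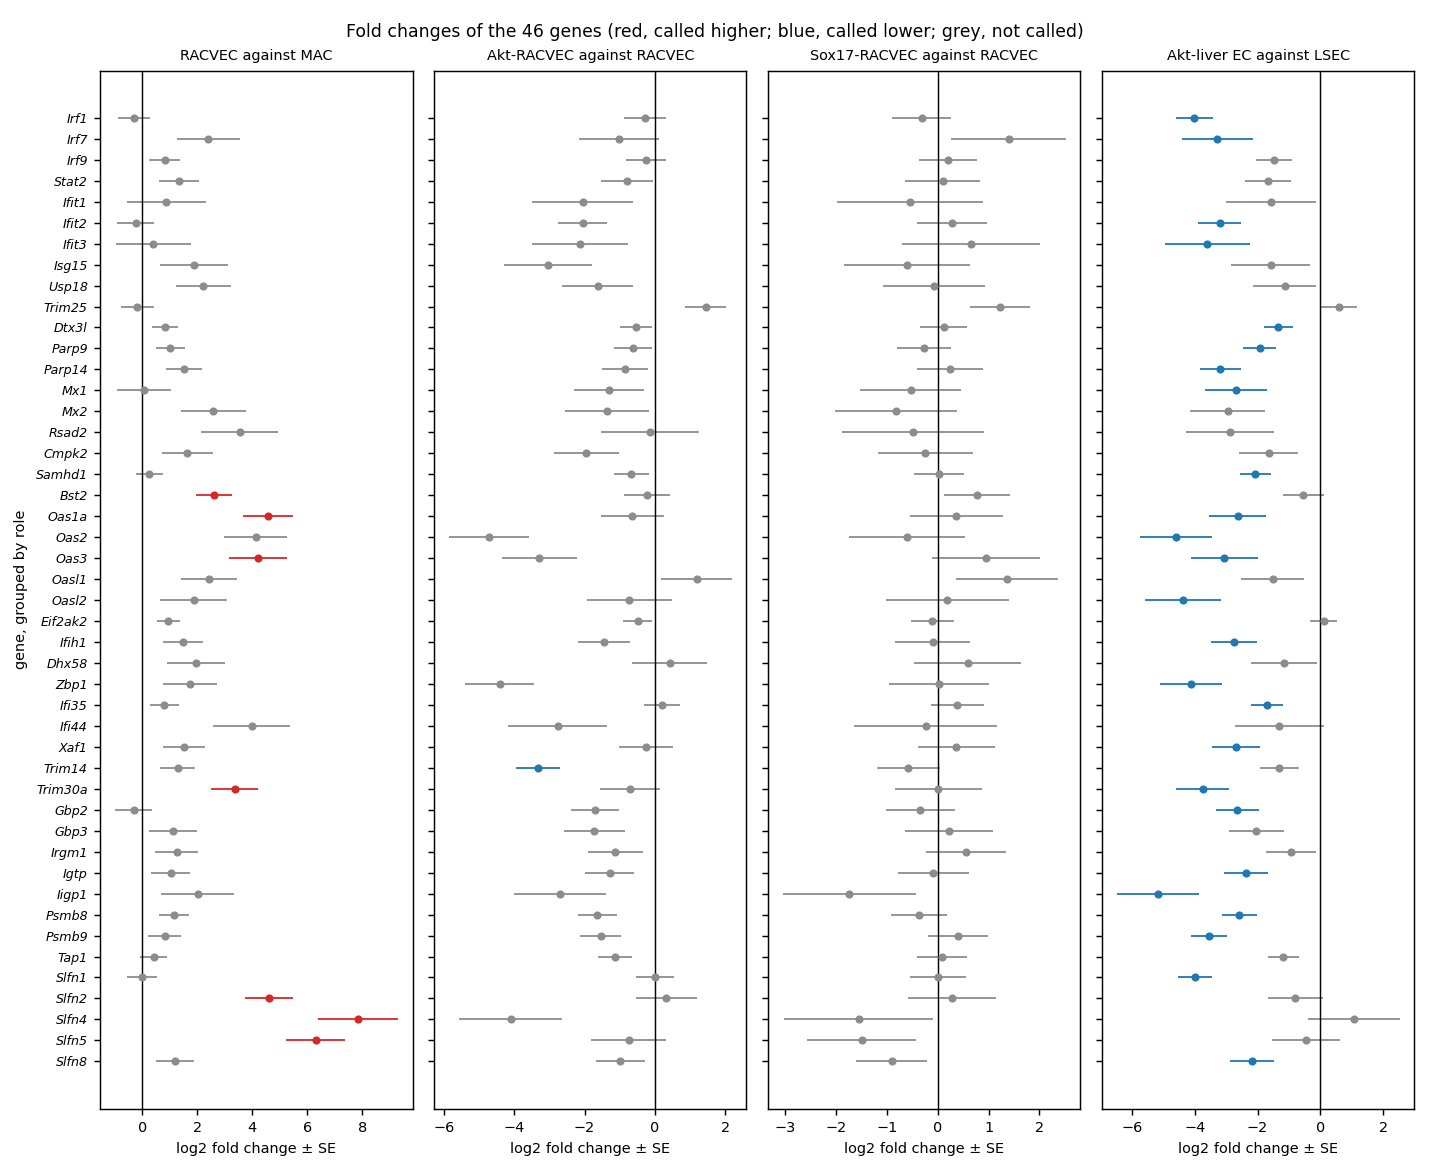
Log2 fold changes (points) with their standard errors (bars) for the 46 genes in 4 comparisons, n = 3 a group, from 1 limma fit on log2(FPKM + 1). Red points passed the test as higher, blue as lower. Points lie mostly right of 0 for RACVECs against MACs, mostly left of it for Akt-RACVECs against RACVECs and for Akt-liver ECs against LSECs, and around it for Sox17-RACVECs against RACVECs, each with a scale of its own.

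Sox17-RACVECs against RACVECs gave no called member in either direction, where 0% of all genes were called higher and 0.00668% lower. By unadjusted p there were 0 too, against 1.32% and 3.38% of all genes, and by the criterion in the study's methods also 0. The median fold change was 0.01, and 24 of 46 were above 0 (41% of all genes). The libraries did not overlap for 3 members that were higher, Bst2, Irf7 and Irgm1 (4.05% of all genes), and for 1 that was lower, Iigp1 (6.55%). Without the library labelled Sox17-RACVEC 2 no member was called either, the median was -0.36 and 13 were above 0. Bst2 was 6135, 6566 and 3842 FPKM, each above the highest RACVEC at 3833, though the last only slightly (0.77 ± 0.65, adjusted p = 0.936). Irf7 was 317, 1488 and 558, also above the RACVECs (1.40 ± 1.13, adjusted p = 0.927). Iigp1, a GTPase of the vacuoles of intracellular parasites, was 99.6, 127 and 49.1 against 411, 309 and 188 (-1.74 ± 1.31, adjusted p = 0.905). For 36 members the highest Sox17-RACVEC was the library with Etv2 at 0, and for 36 the lowest was Sox17-RACVEC 3. The comparisons of Akt-RACVECs, Sox17-RACVECs and MACs with RACVECs share the same 3 RACVEC libraries.

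Akt-MACs were compared with MACs to see what Akt changed without the Ets factors. In Akt-MACs 4 members rose and 0 fell, against 2.59% and 0.214% of all genes: Slfn2, Slfn5, Oas1a and Trim14. The fold change was above 0 for 39 (57.4% of all genes), and 8 lay above all MACs (10.7%). Slfn2 was 165, 246 and 546 FPKM in Akt-MACs, above the MAC maximum of 35.3 (4.25 ± 0.86, adjusted p = 0.0117, limma). Slfn5 was 40.02, 68.8 and 173, above the MAC maximum of 20.7 (4.20 ± 1.07, adjusted p = 0.0398, limma). Both were thus above MACs in every Akt-MAC library. Trim14 was 14.5, 54.3 and 87.5 FPKM against 3.31, 1.59 and 5.19 (3.37 ± 0.62, adjusted p = 0.00822, limma). Oas1a was 15.2, 95.9 and 146 against 27.1, 1.97 and 1.29, and the groups overlapped (3.41 ± 0.91, adjusted p = 0.0492, limma).

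Macrophage RNA also differed between these libraries. Of 15 macrophage markers, the summed FPKM was 1256, 19408 and 57459 in Akt-MACs 1, 2 and 3 and 23.95, 7.62 and 22.1 in MACs, with Adgre1, which encodes F4/80, at 56.6, 1648 and 4105 against 0 in all MACs. Akt-MAC 1, with the least of it, was the lowest Akt-MAC for 38 of the 46 members. Without Akt-MAC 2 and 3 no member was called, the median fold change was -0.25 in place of 0.66, and Trim14 was at 1.92 (adjusted p = 0.823). Without Akt-MAC 2 alone 0 were called, without Akt-MAC 3 alone 1, without MAC 2 or MAC 3 alone 2, and without Akt-MAC 1 alone 9 (4.54% of all genes). In bulk RNA, fewer cells of a type and less RNA per cell cannot be told apart, and the part of the macrophage RNA in these calls was not tested.

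Whether Akt acted differently on RACVECs and MACs was tested as an interaction, with MACs as the control of one arm and RACVECs of the other. The difference of the effects was above 0 for 2 of 46 members, against 41.5% of all genes. By unadjusted p it was lower for 14 (7.04%) and higher for 0 (3.09%). Only Trim14 passed, at -6.69 ± 0.88 (adjusted p = 0.00102, limma), where 0.0936% of all genes were called lower and 0.00668% higher. It was higher in Akt-MACs than in MACs and listed at 0 in Akt-RACVECs. Without Akt-MAC 2 and 3 the difference was -5.24, with Akt-MAC 1 alone in its group and assumed to vary like the other groups. The macrophage markers of Akt-MAC 1 summed to 1256.5 FPKM, against at most 23.95 in MACs. The part of macrophage RNA in this difference was not tested. Oas2 at -7.05 ± 1.61 (adjusted p = 0.1004), Oas3 at -6.34 ± 1.51 (adjusted p = 0.102) and Zbp1 at -5.95 ± 1.40 (adjusted p = 0.102) did not pass.

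Akt-liver ECs against LSECs set cultured liver ECs, which also carried the active Akt, beside freshly sorted ones. Culture, Akt and the way of isolation cannot be told apart in this comparison. In the cultured cells 25 of 46 members were lower and 0 higher, against 12.9% and 14.1% of all genes, and for 35 members every Akt-liver EC lay below every LSEC, against 24.9%. The fold change was above 0 for 3 (53.2% of all genes), and 2, Slfn4 and Trim25, lay above all LSECs without passing (27.7%). The median fold change was -2.13, against 0.08 over all genes. Irf1, a factor of the interferon-γ response, was 50.5, 46.5 and 39.8 FPKM in Akt-liver ECs and 610.4, 559 and 1213 in LSECs (-4.01 ± 0.59, adjusted p = 4.06e-05, limma). Psmb9 was 27.96, 56.8 and 75.5 against 588, 518 and 669 (-3.55 ± 0.59, adjusted p = 0.000147, limma), and Psmb8 fell as well (-2.58 ± 0.55, adjusted p = 0.00152, limma). In each of these genes the lowest LSEC was several times the highest cultured library.

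All 10 roles had members among those that fell. Of the transcription factors, Irf1 and Irf7 fell, and of the Ifit genes, Ifit2 and Ifit3. Of Isg15 and its modifiers, Parp14, Parp9 and Dtx3l fell. Mx1 and the nucleotide hydrolase Samhd1 fell, as did Oas1a, Oas2, Oas3 and Oasl2. Ifih1 (Mda5), a sensor of long double-stranded RNA, and Zbp1 fell, with Ifi35, Xaf1 and Trim30a. The GTPases Gbp2, Igtp and Iigp1 fell, and Iigp1 had the largest difference of the 46, -5.18 ± 1.31 (adjusted p = 0.00512, limma). Of the Schlafen genes Slfn8 fell (-2.18 ± 0.69, adjusted p = 0.0200) and Slfn1, listed at 0 in all Akt-liver ECs, was called lower, while Slfn3 and Slfn9 outside the members were higher by 2.22 and 1.46. Slfn5 was 73.6, 501 and 404 against 426, 291 and 316 and overlapped. Isg15 was 154, 468 and 54.8 against 347, 301 and 1053 and overlapped too, as did Ifit1, Ifi44 and Bst2.

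The LSECs held RNA of other cells beside these differences, although they were sorted by VEcad and isolectin. The macrophage markers summed to 32708, 29141 and 20282 FPKM in LSECs and to 1888, 286 and 568 in Akt-liver ECs. Clec4f and Vsig4, which mark Kupffer cells, were 4942, 4169 and 2965 and 2185, 1712 and 1418 FPKM in LSECs, while Clec4f was 4.75, 0 and 0 in Akt-liver ECs. The 13 leukocyte and lymphocyte markers were all above 0 in each LSEC and summed to 305, 280 and 314 FPKM. In Akt-liver ECs they summed to 26.7, 0.89 and 0.54. The part of RNA from these other cells in the lower members was not tested. The 3 LSECs were similar in the members, with a median SD of 0.251 on the log2 scale. Akt-liver EC 3 was the lowest cultured liver library for 31 members, and 13 were called lower without it (10.7% of all genes). Leaving out Akt-LEC 1 and Akt-liver EC 1 gave 26 (13.4% of all genes).

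Akt-LECs against Akt-liver ECs, lung against liver in the same culture, gave 0 called members, where 0% of all genes were called higher and 0.0134% lower. By unadjusted p, 6 were higher in lung (1.12% of all genes) and 0 lower (1.67%), and by the criterion in the study's methods 0. The sign was one-sided: 42 of 46 were above 0, against 43.1% of all genes, with a median of 1.03. The spread within each group was wide, since Akt-LEC 1 was the lowest for 42 members and Akt-LEC 2 the highest for 38. Ifit1 was 7.22, 586 and 156 FPKM in Akt-LECs and 43.0, 98.6 and 6.26 in Akt-liver ECs. Isg15 was 50.6, 1513 and 796 in Akt-LECs, and Akt-LEC 1 was below all 3 Akt-liver ECs. Without Akt-LEC 1 and Akt-liver EC 1, which held mesenchymal RNA, the median was 1.84 and still 0 were called, from 2 libraries a group.

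The cultured ECs, Akt-LECs and Akt-liver ECs weighted equally, were also set against the amniotic cells. All of these ECs carried the active Akt and neither MACs nor RACVECs did, so cell origin and Akt cannot be told apart. RACVECs were higher in 2 members and lower in 0, against 0.621% and 1.26% of all genes: Slfn4 (5.79 ± 1.27, adjusted p = 0.0222) and Oas2 (3.89 ± 0.98, adjusted p = 0.0461, limma). The fold change was above 0 for 40 (46.5% of all genes). Neither was called without RACVEC 2 or without RACVEC 3. In the same comparison the 9 mesenchymal markers had a median fold change of 3.30 and the 10 endothelial markers of -2.77, and their part in it was not tested. Oas2 was 1.68, 10.5 and 23.9 in Akt-LECs and 2.21, 0 and 0 in Akt-liver ECs, all below the lowest RACVEC at 36.3. MACs were lower in 6 members and higher in 0, against 7.30% and 7.51% of all genes. These were Bst2, Oas1a, Oasl1, Trim14, Slfn2 and Slfn5, with Slfn5 the furthest apart (-5.68 ± 0.93, adjusted p = 0.000512, limma). Above 0 were 8 members (46.9% of all genes), and 3 were called lower without MAC 2 or without MAC 3. The comparisons with cultured ECs share their 6 libraries with each other, and MACs and RACVECs each stand in other comparisons too.

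The rest of the pathway was followed on lists of ligands, receptors, inhibitors and inducers. Of 21 interferon genes, 2 had a mean FPKM of at least 1. Ifnb1 was listed at 0 except at 9.07 and 10.8 FPKM in LSEC 1 and 2, and Ifng, made by lymphocytes, was above 0 only in LSECs, at 13.2, 11.9 and 4.87. Ifne, an epithelial type I interferon, was 0 in all MACs and Akt-MACs and 64.95, 31.2 and 64.4 in RACVECs. It was also 49.9, 146 and 15.0 in Akt-RACVECs and 21.0, 68.1 and 46.5 in Sox17-RACVECs. Every library labelled with the Ets factors thus had it, and it rose from MACs to RACVECs (adjusted p = 0.00370, limma). Ifne was also 61.0 in Akt-LEC 3, and 1.58 or less in the other ECs.

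Of 6 receptor genes none was called between RACVECs and MACs, and Ifnar1, for example, lay between 57.8 and 179 FPKM in all 24 libraries. Of 13 genes that induce interferon, Sting1, the adaptor of DNA sensing, rose in RACVECs by 1.84 ± 0.38 (adjusted p = 0.0110, limma). None of 6 inhibitors of the pathway or 7 other interferon regulatory factors was called there. Of 43 tested interferon-induced genes outside the members, 3 rose from MACs to RACVECs (1.36% of all genes did) and none fell, namely Gbp4, Gbp9 and Oas1g. Of the same 43 none was called between Akt-RACVECs and RACVECs, with a median fold change of -0.80, and 25 were lower in Akt-liver ECs than in LSECs, where 12.9% of all genes were. Among these was Cxcl9, a chemokine of the interferon-γ response, at 262, 191 and 930 FPKM in LSECs and 2.75, 0 and 0 in Akt-liver ECs.

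Within groups, libraries differed more in these genes than in genes at large. The SD of log2(FPKM + 1) between the 3 libraries had a median of 1.60 over members in Akt-LECs. It was 1.03 in Akt-MACs and 1.01 in both MACs and Akt-liver ECs. Only members whose group mean, taken on the log2(FPKM + 1) scale, corresponded to at least 10 FPKM were used. Over all genes at that level the medians were 0.352, 0.334, 0.361 and 0.360. In RACVECs, Akt-RACVECs and Sox17-RACVECs the members were at 0.503, 0.728 and 0.799, against 0.342, 0.370 and 0.379. LSECs, which were never cultured, had 0.251 against 0.221. The gap was thus smallest in the group taken directly from mice.

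**Figure D5:**
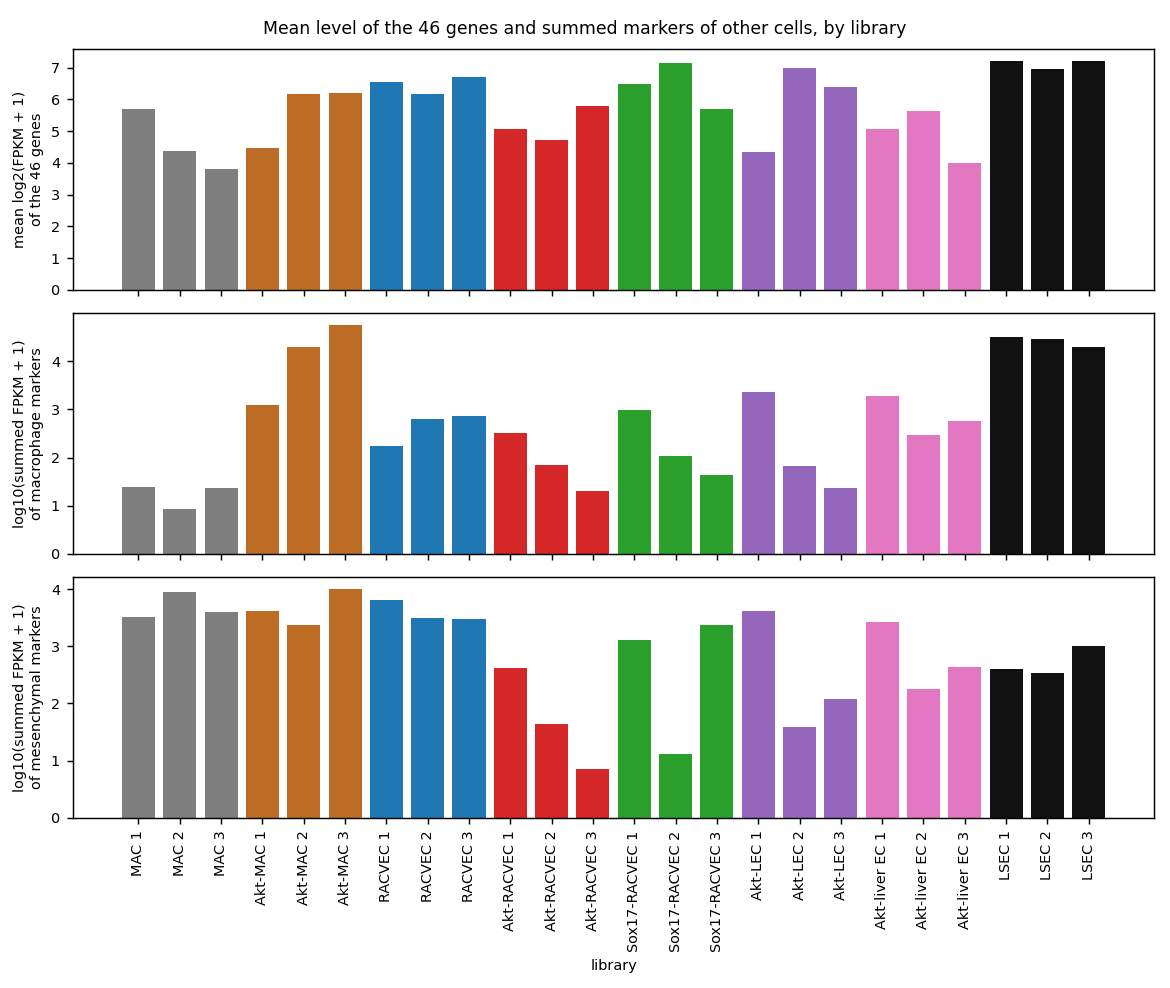
Mean log2(FPKM + 1) of the 46 genes (top) and the log10 of the summed FPKM + 1 of 15 macrophage (middle) and 9 mesenchymal markers (bottom), 1 bar a library, coloured by group. The top bars differ within MACs, Akt-MACs and cultured ECs by more than within LSECs, and the macrophage bars are tallest in Akt-MAC 2 and 3 and the LSECs.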

How the data were processed

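The authors made paired reads of 51 bp from polyA RNA with TruSeq kits, mapped them with TopHat to mm9 (mmp9 in the methods) and deposited FPKM from Cufflinks (upper-quartile scaling, sequence bias corrected), 1 value per RefSeq transcript. Versions and read numbers are not given in the sources used here, so depth is unknown and no counting error can be given; precision rests on the 3 libraries in each group. Transcripts were summed by current symbol (22282 genes; 653 transcripts had no symbol). The 14964 genes whose FPKM averaged 1 or more over all libraries were tested on log2(FPKM + 1) with limma 3.58.1 in R 4.3.3, in 1 fit of 24 libraries and 8 groups with a trend in the prior variance. Calls needed a Benjamini-Hochberg adjusted p under 0.05 over all of them and a log2 fold change above 1 in size. The criterion in the study's methods, an unadjusted p on FPKM with a log2 ratio of that size, was an alternative. The fit was tested on simulated data. P-values measure the spread between isolates within groups, pooled over all 8 groups, so that libraries of groups not compared also enter it.

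The members, lists and tests were chosen with earlier results of these data known. Every member was accounted for; by rule, those called were named, and those with an unadjusted p under 0.05 or groups that did not overlap could be. Other values, of members and pathway genes, were chosen after they were seen. Protein sequences were not used here.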

Additional observations from a re-analysis of the deposited data

Results flagged for a closer look

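The Akt effect on Trim14 differed between the amniotic cell types, with a difference of -6.69 on the log2(FPKM + 1) scale (Akt-RACVECs against RACVECs, less Akt-MACs against MACs; adjusted p = 0.00102, limma's interaction contrast). Trim14 was listed at 0 in all 3 Akt-RACVECs, and was 54.3 and 87.5 FPKM in Akt-MAC 2 and 3, the libraries richest in macrophage markers, and 14.5 in Akt-MAC 1. The Trim14 difference was -10.2 with a pseudocount of 0.1 and -2.95 with 10 (adjusted p = 3.20e-05 and 0.0459), since 1 group is at 0. No group of 3 libraries was examined for outliers.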

How the results depend on the processing

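No called difference changed direction in these fits. Of 1709 values of single members under an alternative, 1550 kept their side of the threshold, 129 fell short of it and 30 passed it. The 1709 include members with an unadjusted p under 0.05 that the full fit did not call. Those count as kept where they stayed uncalled, and only called ones could fall short. In fits of the compared groups alone, with fewer libraries to estimate the spread, called members numbered 1 higher in RACVECs than MACs (7 in the full fit), 0 higher in Akt-MACs (4), 3 lower in MACs than cultured ECs (6) and 2 lower in the interaction (1). A pseudocount of 10 gave 2 higher in Akt-MACs, as did scaling each library by its median shift. RACVECs against cultured ECs fell from 2 to 1 with a pseudocount of 0.1 and with no filter on low values, and Akt-RACVECs against RACVECs rose from 1 to 2 lower members with a filter at a mean FPKM of 10 and with the highest transcript of each gene alone. By the criterion in the study's methods 5 were lower in Akt-RACVECs (1.81% of all genes), 2 higher in Akt-MACs (0.754%) and 3 lower in MACs than cultured ECs, a share near the 6.68% of all genes. It was met by 9 members (1.35% of all genes) in RACVECs against MACs, namely Bst2, Dhx58, Ifi44, Ifih1, Irf7, Oas2, Oas3, Oasl1 and Parp14, and not by the Schlafen genes. Alternatives added after the data were seen gave 0 higher in Akt-MACs without Akt-MAC 2 and 3, and 3 lower in Akt-RACVECs without the library labelled Sox17-RACVEC 2. The causes were not tested. Throughout, a count without a share of all genes cannot tell a change in the members from one over all genes.

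Leaving out 1 library of the compared groups at a time gave 4 to 6 higher in RACVECs than MACs, 0 to 9 higher in Akt-MACs, 3 to 7 lower in MACs than cultured ECs, 1 to 9 lower in the interaction, 0 to 1 lower in Akt-RACVECs, 0 to 3 higher in RACVECs than cultured ECs, and 13 to 23 lower in Akt-liver ECs than LSECs. The interaction reached 9 without Akt-MAC 1, where 2.62% of all genes were called lower.

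Replicate numbers did not pair the libraries throughout: in no pair of groups were all 3 correlations of same-numbered libraries over 0.1. The highest mean was that of Akt-LECs with Akt-liver ECs, 0.296 against -0.143 for libraries of other numbers. Their correlations were 0.571, 0.366 and -0.050 for numbers 1, 2 and 3. Whether these libraries shared a preparation was not tested. With the number as a block, Akt-RACVECs had 2 lower members, RACVECs 1 higher against cultured ECs and 6 against MACs, Akt-MACs 3 higher and Akt-liver ECs 23 lower. Depth is unknown, so a value listed at 0 sets no limit on expression.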
